A study of Danio rerio with 12 samples.

Results

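Zebrafish chromosome 17 held 1131 of the 35040 regions in the deposited comparison of TDCIPP with its DMSO controls and 1479 of the 45019 regions in the comparison of decitabine (DAC) with its own, 2610 of 80059 in all. The regions were chosen by their chromosome name, which included every accessible region of the assembled chromosome and left out its alternate scaffolds. The chromosome itself was selected with its folds and calls known, so its counts and medians are a description and carry no test. On GRCz11, the build named in the submitters' processing notes, the regions ran from base 201 to base 53460002. They made up 3.79% of the regions on the 25 assembled chromosomes after TDCIPP and 3.77% after DAC.

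Accessibility was read by ATAC-seq, in which a transposase inserts adapters where DNA is open, in whole wild-type AB/Tuebingen embryos collected 6 hours post fertilization. Newly fertilized eggs had been placed in 3.12 µM TDCIPP, an organophosphate flame retardant, in 100 µM DAC (5AzaC in the header of the deposited table), or in 0.1% DMSO, the solvent. The 4 groups held 3 libraries each, and the TDCIPP and DAC series had separate DMSO libraries, so no control was shared. A whole embryo mixes all its cell types, so fewer cells with an open region and less opening per cell cannot be told apart. The labels number the libraries without saying whether they came from separate clutches, so p-values measure a spread that may be technical.

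Open chromatin is found at promoters and enhancers, where nucleosomes are displaced by bound factors. At the stage sampled, the zygotic genome has recently become active and gastrulation begins. DAC is incorporated into DNA during replication and traps the enzymes that methylate cytosine. The histone variant H2A.Z and the silencing of repeats, which the series title names, are both bound up with DNA methylation in the early zebrafish embryo.

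Each region has a level, the log2 of its mean normalized read count over the libraries of a comparison, and a fold, the treated minus the DMSO level. The tables give group means and the authors' p-values but no value of a single library. Each group value below is thus a mean over 3 libraries without an SD, and each fold is the difference of such means. A region is called where the authors' adjusted p is under 0.05. Levels count reads over a whole region, so they rise with its width. Reads per region were much fewer in the DAC comparison: the median normalized count of a chromosome 17 region was 86.8 for TDCIPP and 18.3 for DAC. On other chromosomes these medians were 85.6 and 18.1. In the TDCIPP table, 294 chromosome 17 regions lay below a level of 5.71, under which every adjusted p was 1, which left 837 that could be called. By the p-values of the authors' deposited table, 23 of the regions with an adjusted p of 1 were under 0.05 before adjustment, 19 higher and 4 lower.

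After TDCIPP, chromosome 17 had regions called in both directions. By the authors' deposited table, 14 of its regions rose and 16 fell. The 14 rises were 1.24% of its regions, against a background of 0.362% over the whole table. The 16 falls were 1.41%, against a background of 0.916%. Other chromosomes weighted to the same levels gave 0.341% higher and 0.872% lower. The number of rises ranked first of the 25 chromosomes, the others holding 1 to 13, with 13 on chromosome 4 and a median of 3. The number of falls ranked sixth, the others holding 0 to 28, with a median of 8.5. The chromosome was picked with these counts in view, so nothing is read from the ranks.

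The typical region of the chromosome differed little from its DMSO level. After TDCIPP the median fold was 0.02, with quartiles at -0.12 and 0.19, against 0.01 on the other chromosomes. The folds ran from -0.89 to 1.23, and 612 of the 1131 lay above 0 (54.1%, against 50.2% elsewhere). After DAC the median fold was 0.05, with quartiles at -0.23 and 0.29, against 0.10 elsewhere. There the folds ran from -1.44 to 1.80, and 834 of 1479 lay above 0 (56.4%, against 59.0% elsewhere).

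At like level, within 10 classes of level, the chromosome's TDCIPP fold was 0.013 above the other chromosomes, the sixth highest value of 25. Those of the other chromosomes ran from -0.040 on chromosome 19 to 0.026 on chromosome 18. Its DAC fold was 0.045 below the other chromosomes, a difference of -0.045 and the second lowest value. The others ran from -0.048 on chromosome 13 to 0.046 on chromosome 22. Both values were within the range of the other chromosomes, whose SD was 0.018 for TDCIPP and 0.025 for DAC.

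**Figure D1:**
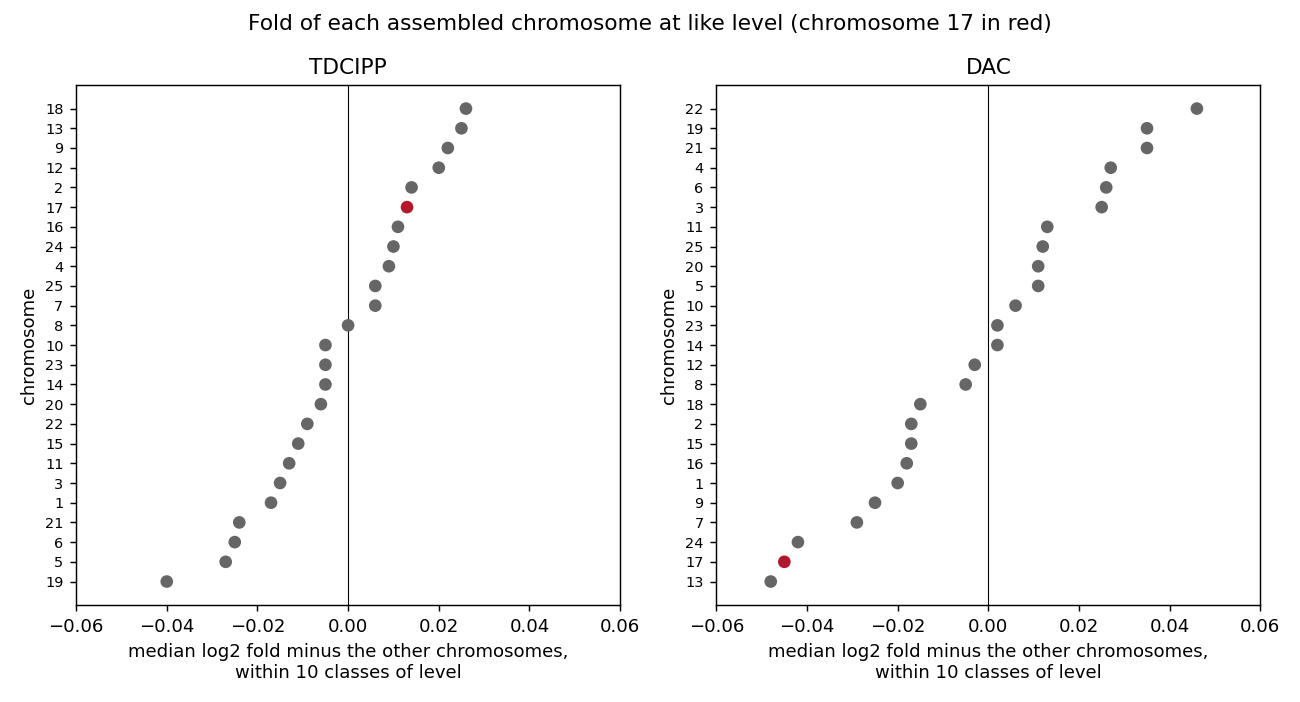
Median log2 fold of each of the 25 assembled chromosomes minus that of the others, within 10 classes of level, for TDCIPP (left) and DAC (right). Each point is 1 chromosome, sorted by value within a panel; chromosome 17, in red, lies at 0.013 for TDCIPP and at -0.045 for DAC, inside the range of the others in both panels.

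The DAC difference was present at both ends of the level range but not in every class between. In class 5 the median DAC fold was 0.095 on chromosome 17 and 0.03 elsewhere. In the lowest class of level the median DAC fold was -0.27 on chromosome 17 and -0.16 elsewhere. In the highest class it was 0.27 against 0.35, and 78.9% of the regions lay above 0 against 88.9% elsewhere. That class, 147 regions on chromosome 17, included all 18 DAC regions of places 2, 4 and 5, described further on. All 18 lay below 0, and those places were grouped on their folds. No value of the class without them is given here, so its difference may not extend beyond those places. For TDCIPP the highest class had a median of -0.07 both on chromosome 17 and elsewhere, while the second lowest had 0.11 against 0.06. In that highest class 10 of 108 chromosome 17 regions fell after TDCIPP, against 144 of 2880 on the other chromosomes. A single run of 52.7 kb, described further on as place 1, held 9 of these 10. Neighbouring regions had folds of the same sign about as often as elsewhere, in 56.7% of neighbours for TDCIPP and 57.0% for DAC. The medians of the other chromosomes were 56.8% and 57.9%.

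Along the chromosome, 54 windows of 1 Mb, numbered from its start, held at least 5 regions in both tables. The TDCIPP median was above 0 in 31, below 0 in 19 and at 0 in 4, so 57.4% were above 0, against 53.3% of windows elsewhere. The highest was window 41 at 0.61, which rests on 5 regions, 3 of them above 0 and 0 called. Windows 48 and 47 followed at 0.40 and 0.37, over 6 and 13 regions. None of the 1287 windows of other chromosomes had a median as high as that of window 41, and 99% of them lay below 0.241. Those windows were not matched to it by number of regions. The lowest were window 20 at -0.20, window 24 at -0.18 and window 23 at -0.12, and 8 windows elsewhere were as low as window 20 or lower.

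The DAC medians were above 0 in 40 windows and below 0 in 14 (74.1% above 0, against 74.2% elsewhere). The share above 0 was 33.3% once each fold was taken relative to the median of its level class. No such share is given here for windows elsewhere, so 33.3% has no comparison. The highest medians were 0.30 in window 16, 0.29 in window 49 and 0.26 in window 29. The lowest were -0.35 in window 47, -0.33 in window 48 and -0.25 in window 40. On other chromosomes 82 of 1304 windows were at or above the highest and 5 at or below the lowest. Windows 47 and 48, lowest after DAC, were thus among the 3 highest after TDCIPP. They hold 2 of the dense places described further on, place 4 in window 47 and place 5 in window 48. Window 40 holds place 2, whose 7 DAC regions, all below 0, are among its 23. These places were grouped on their folds. The DAC median of window 48 rests on 5 regions, 4 of them in place 5.

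The signs of the medians differed between the compounds in more windows than they matched. TDCIPP was above 0 and DAC below in 11 windows, and TDCIPP below and DAC above in 17. Both were above 0 in 20 and both below in 2, and 4 had a median at 0. Across the 54 windows the medians had a Pearson correlation of -0.52 and a Spearman correlation of -0.39, given as a description, since windows of a table share their libraries. Across the 49 windows without the 5 dense places described further on, the values were -0.26 and -0.25. No such window values are given here for other chromosomes. Among regions present in both comparisons with nonzero folds, 54.3% had opposite signs on chromosome 17 and 55.2% elsewhere. The Pearson correlations over such shared regions were -0.22 and -0.15, so opposite signs were not particular to chromosome 17.

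**Figure D2:**
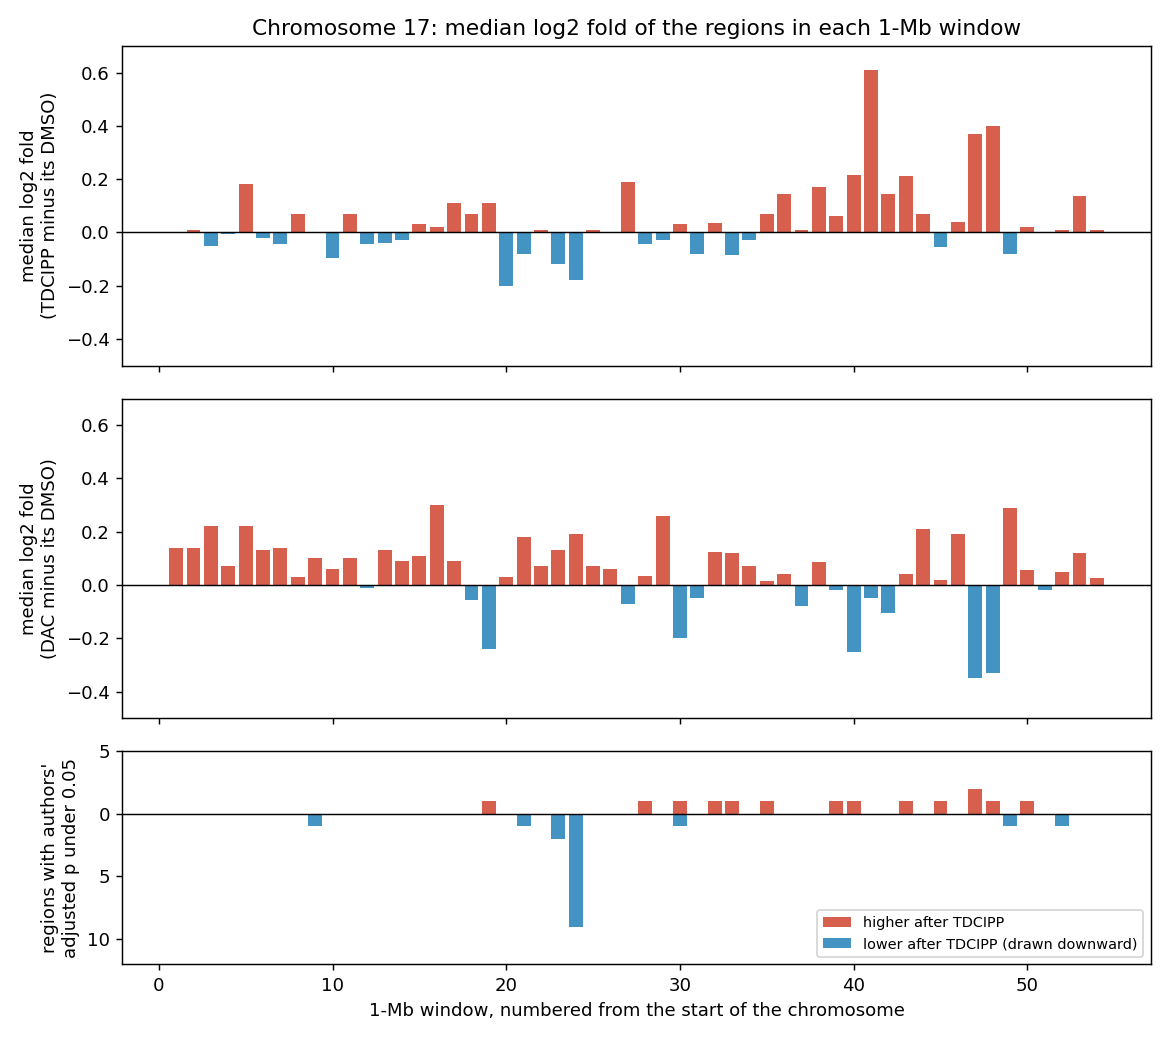
Median log2 fold of the chromosome 17 regions in each 1-Mb window for TDCIPP (top) and DAC (middle), and the number of regions called after TDCIPP, rises drawn upward and falls downward (bottom), against the window number from 1 to 54. Windows 47 and 48 are high for TDCIPP (0.37 and 0.40) and low for DAC (-0.35 and -0.33), and window 24 holds 9 of the 16 falls.

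The window medians, once seen, were used to divide the chromosome into 3 stretches. Windows 35 to 48, bases 34000001 to 48000000, held 264 TDCIPP regions with a median fold of 0.105, and 69.3% of them lay above 0. Their medians were above 0 in 13 of 14 windows, and they held 8 rises and 0 falls. In windows 1 to 34 the 744 regions had a median of 0.00 and 48.5% lay above 0, with 5 rises and 14 falls. In windows 49 to 54 the median was 0.02, with 1 rise and 2 falls.

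The 404 DAC regions of windows 35 to 48 had a median fold of -0.015, and 48.8% lay above 0. The stretches on either side had medians of 0.08, with 59.5% above 0 before it and 58.3% after. Relative to the level classes, the DAC median of windows 35 to 48 was -0.13. The run of TDCIPP windows above 0 was 10 long, from window 35 to window 44. The longest such run on another chromosome was 15 windows, 3 chromosomes had one at least as long, and the median was 5. The longest DAC run below 0 was 4 windows, from 39 to 42, and 7 other chromosomes had one at least as long.

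The 14 rises were mostly single. They came to 13 places when those within 50 kb were joined, and 13 of the 14 lay in windows 28 to 50. Their folds ran from 0.44 to 1.01 with a median of 0.77, their median level was 6.75 and their median width 985.5 bp. The 97 rises of the other chromosomes had a median fold of 0.64, a median level of 7.11 and a median width of 1342 bp.

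The largest rise was at 32848363 to 32849661, where the mean went from 35.3 normalized reads in DMSO to 71.0 in TDCIPP. Its fold was 1.01, and the authors' deposited table gives it an adjusted p of 0.00381. The smallest adjusted p of a rise in the authors' deposited table, 0.00233, was at 34909773 to 34910637. There the mean went from 62.2 to 110.7 reads, a fold of 0.83. In the authors' deposited table these were the only rises of chromosome 17 with an adjusted p under 0.01, and neither had an overlapping region in the DAC table.

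A further 5 rises started from under 62 reads in DMSO. The region at 44377789 to 44378298 went from 36.8 to 71.0 reads, a fold of 0.95. The region at 18863262 to 18864607, the first rise along the chromosome, went from 40.2 to 74.5 reads, a fold of 0.89. At 49970216 to 49970926, the last rise, reads went from 42.2 to 77.7, a fold of 0.88, for which the authors' deposited table gives an adjusted p of 0.0483. The regions at 27651157 to 27651752 and 31727468 to 31728204 both started from 59.7 reads and reached 103.3 and 102.5, folds of 0.79 and 0.78.

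The middle of the range held 4 rises. The region at 38314711 to 38315485 went from 99.7 to 168.9 reads, a fold of 0.76. At 29024200 to 29025305 reads went from 123.6 to 198.1, a fold of 0.68. At 42519760 to 42520520 they went from 164.3 to 240.5, a fold of 0.55. At 39954723 to 39956015 they went from 232.3 to 337.8, a fold of 0.54, for which the authors' deposited table gives an adjusted p of 0.0455. These regions were spread over more than 10 Mb, with at most 1 rise in a window.

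The 3 rises with most reads lay close together and had the smallest folds. At 46498392 to 46503057 reads went from 685.0 to 929.3, a fold of 0.44. At 46515142 to 46518770 they went from 639.1 to 891.4, a fold of 0.48. At 47059147 to 47062325 they went from 1105 to 1520, a fold of 0.46. The authors' deposited table gives them adjusted p-values of 0.0386, 0.0225 and 0.0167. The first 2 were the only rises of the chromosome within 50 kb of another.

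**Figure D3:**
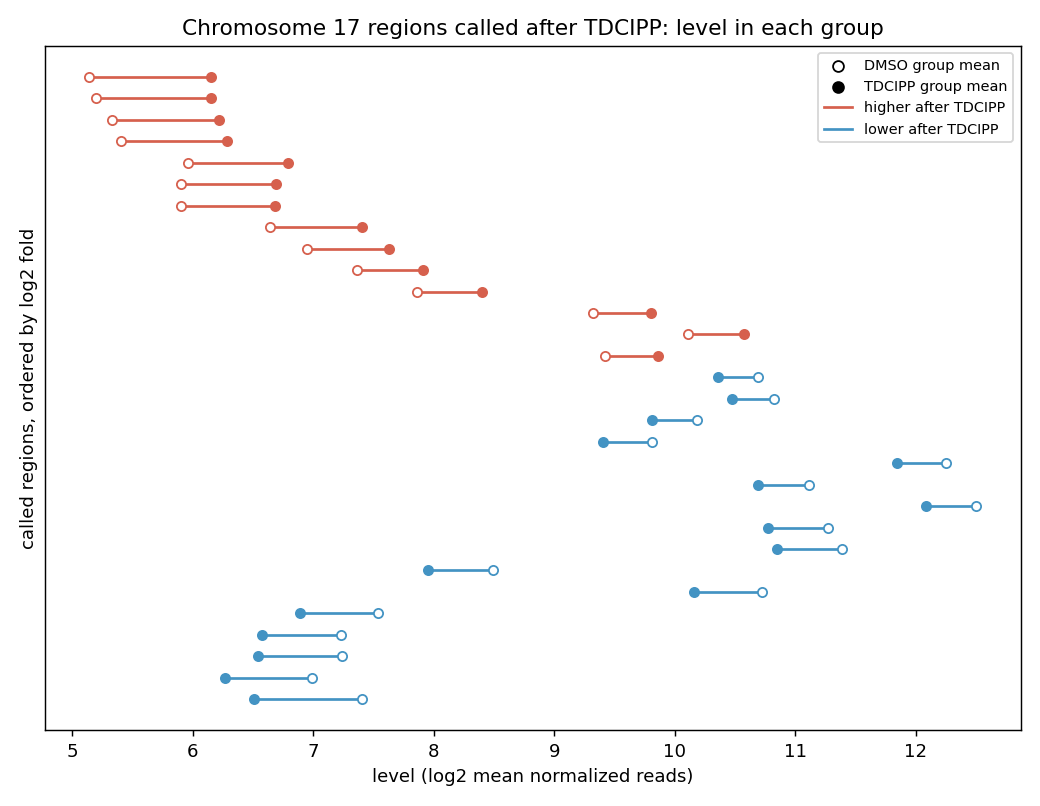
Level (log2 mean normalized reads) of each of the 30 chromosome 17 regions called after TDCIPP, in the DMSO group (open circle) and the TDCIPP group (filled circle), 1 region per line, ordered by log2 fold. The 14 rises (red) have levels over all libraries of 5.73 to 10.36 and the 16 falls (blue) of 6.68 to 12.30; points are group means over 3 libraries, and no error bar can be drawn from the deposited values.

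The 16 falls came down to 8 places when those within 50 kb were joined, because 9 of them formed a run in window 24. The other 7 lay singly in windows 9 to 52, with folds from -0.89 to -0.41 and a median of -0.66. The largest fall was at 20537620 to 20538765, from 168.9 reads in DMSO to 91.1 in TDCIPP. Its fold was -0.89, and the authors' deposited table gives it an adjusted p of 0.00011. All 3 regions within 50 kb of it were also below 0.

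Window 23 held 2 falls. At 22742575 to 22744420 reads went from 127.1 to 77.2, a fold of -0.72, and at 22241518 to 22243125 from 186.1 to 118.6, a fold of -0.65. The fall nearest the end of the chromosome, at 51754650 to 51757018, went from 151.2 to 93.1 reads, a fold of -0.70. The fall nearest its start, at 8629609 to 8630543, went from 150.1 to 95 reads, a fold of -0.66.

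At 48942675 to 48944590 reads went from 359.5 to 247.3, a fold of -0.54. At 29901426 to 29903010, in window 30 with 1 of the rises, they went from 897.6 to 675.6, a fold of -0.41. That region was the last inside the threshold, at an adjusted p which the authors' deposited table gives as 0.0496. The first outside it, at 23383216 to 23383927, had a fold of -0.32, and the authors' deposited table gives its adjusted p as 0.0542. It adjoins the run of falls.

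The run of falls, called place 1, spanned 52.7 kb from 23329700 to 23382391. It was picked as a run of at least 6 falls within 50 kb of each other, so the direction of its TDCIPP folds is no evidence in itself. All 14 of its TDCIPP regions lay below 0, from -0.56 to -0.18 with a median of -0.36, and 9 were called. It held 2 of the 3 chromosome 17 regions of highest TDCIPP level. At 23329700 to 23332307, the highest, reads went from 5793 to 4330 (fold -0.42), and at 23377014 to 23380246 from 4871 to 3666 (fold -0.41). Levels in the run were far above the chromosome's median of 6.44, the called regions lying between 10.01 and 12.30.

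The 2 smallest p-values of the chromosome were in the run. At 23333195 to 23333856 reads went from 1687 to 1144, a fold of -0.56, and the authors' deposited table gives an adjusted p of 1.42e-06. At 23339160 to 23340639 they went from 2684 to 1846, a fold of -0.54. At 23343668 to 23344989 they went from 2470 to 1746, a fold of -0.50, and the authors' deposited table gives an adjusted p of 0.000104. The other 4 called regions of the run began at 23348087, 23355585, 23372916 and 23381526, with folds of -0.37, -0.35, -0.42 and -0.33. In TDCIPP the run held 14.2% of the chromosome's normalized reads, against 17.7% in DMSO.

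In the DAC comparison none of these values passed the authors' threshold. Of the 45019 regions 0 were called, 0% of the table, and the lowest adjusted p that the authors' deposited table gives was 1, so the unadjusted p serves only to rank regions. On chromosome 17 the authors' deposited table, made with DiffBind, gives an unadjusted p under 0.05 for 18 regions, 7 higher and 11 lower. The 7 were 0.473% of the chromosome's regions, beside 0.755% of the table, and the 11 were 0.744%, beside 0.251%. At like level the other chromosomes had 0.653% higher and 0.259% lower. The count of 11 was the second of 25, after 12 on chromosome 24, and the count of 7 was the seventeenth.

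These 18 regions had few reads. The 11 lower ones had folds from -1.44 to -0.91, a median level of 3.92 and a median width of 1581 bp. The 7 higher ones had folds from 0.99 to 1.80, a median level of 3.67 and a median width of 740 bp. Both median levels were under that of all DAC regions of the chromosome, 4.19.

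The smallest DAC p of the chromosome, which the authors' deposited table gives as 0.00257 unadjusted, was at 38491230 to 38492079, where reads were 5.39 in DMSO and 18.8 in DAC (fold 1.80). At 6424258 to 6424997 they were 13.7 and 33.1, a fold of 1.27, for which the authors' deposited table gives 0.00672 as the unadjusted p. The overlapping region of the TDCIPP table had a fold of -0.46. The regions at 2142031 to 2142610, 52202105 to 52202754 and 32425785 to 32426481 had folds of 1.27, 1.19 and 1.11, from 5.66, 5.74 and 8.06 reads in DMSO. The first of them had a TDCIPP fold of 0.15 and the last one of -0.13.

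The smallest p among lower DAC values, which the authors' deposited table gives as 0.00954 unadjusted, was at 29407450 to 29408915, where reads were 19.7 in DMSO and 8.88 in DAC (fold -1.15). At 35451473 to 35453613 reads were 20.5 and 9.65, a fold of -1.09, where the TDCIPP fold was 0.31. At 46931730 to 46933310 they were 20.7 and 10.3 (fold -1.0), and at 33118627 to 33120773 they were 20.4 and 10.5 (fold -0.96). The most negative folds, -1.44 at 5351250 to 5352043 and -1.19 at 49931534 to 49932345, were at 8.51 and 8.11 reads in DMSO. None of these differences passed the adjusted threshold.

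Regions of both tables could be compared where they shared at least 1 base, which gave 816 pairs, 72.1% of the TDCIPP and 55.2% of the DAC regions of the chromosome. Of the 785 pairs in which neither fold was 0, 426 had opposite signs (54.3%, against 55.2% on other chromosomes). TDCIPP was above 0 and DAC below in 147 pairs, and TDCIPP below and DAC above in 279. Both were above in 279 and both below in 80. The folds had a Pearson correlation of -0.22 and a Spearman correlation of -0.22 across the 816 pairs, which are not replicates, against -0.15 by both measures on the other chromosomes. By Pearson's value the chromosome was number 23 of 25 from the highest.

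Of the 14 rises after TDCIPP, 9 overlapped a DAC region, and 7 of these had a DAC fold below 0, 4 of them in dense places described in the following paragraphs (places 2, 4 and 5). The 9 DAC folds ran from -0.39 to 0.05 with a median of -0.29, and the smallest unadjusted p that the authors' deposited table gives them was 0.427. Over all pairs with nonzero folds and TDCIPP above 0, the DAC fold was below 0 in 34.5%. Of the 16 falls, 12 overlapped a DAC region, 11 with a DAC fold above 0 and 1 at 0.00, and 7 of the 12 lay in place 1. The 12 DAC folds reached 0.48 with a median of 0.29, and the smallest unadjusted p that the authors' deposited table gives them was 0.48. Over all pairs with nonzero folds and TDCIPP below 0, the DAC fold was above 0 in 77.7%. Some DAC folds were as large as the TDCIPP folds of the same region, such as 0.48 beside -0.42 at 23372916, but none passed the authors' threshold.

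Single rises show this range of DAC values. At 46515142, 46498392, 47059147 and 29024200 the DAC folds were -0.39, -0.37, -0.33 and -0.33. At 27651157, 39954723 and 49970216 they were -0.29, -0.25 and -0.20. At 42519760 and 38314711 they were 0.05 and 0.01. The falls at 8629609, 29901426, 48942675, 22241518 and 22742575 had DAC folds of 0.31, 0.26, 0.15, 0.13 and 0.00. In the run of place 1 the 7 called regions that overlapped a DAC region had DAC folds of 0.17 to 0.48.

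The 2 DMSO groups received the same solvent, and the tables were normalized separately, so a level set across them holds the difference in scale as well as any other. In most pairs the DMSO level was higher in the TDCIPP series. The TDCIPP series was higher by a median of 2.24 over the 816 pairs, with quartiles at 1.77 and 2.63, against 2.28 on other chromosomes. A few pairs departed from this. In 27 pairs (3.31%) the DMSO level was lower in the TDCIPP series, against 412 of 20938 pairs (1.97%) elsewhere. Of the other chromosomes, 4 (4.68%) and 8 (3.48%) had a higher share. Per kb of region 18 pairs (2.21%) had the lower level in the TDCIPP series, against 202 (0.965%) elsewhere.

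Among these 27 pairs the fold was above 0 after TDCIPP in 24 and below 0 after DAC in 22, and both held in 20 (74.1%). Of these 20, 15 were neighbouring pairs of the dense places 2, 4 and 5, described in the next paragraphs. On other chromosomes both held in 217 of 412 (52.7%). In pairs with the usual order of DMSO levels both held in 16.1% on chromosome 17 and 13.2% elsewhere. The DMSO level is part of both folds, so choosing pairs by it moves their folds in this direction by itself. With pairs chosen by the treated levels instead, both held in 18 of 28 pairs on chromosome 17 (64.3%) and 156 of 412 elsewhere (37.9%). The same 15 pairs of places 2, 4 and 5 were among these 18.

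The 27 pairs lay largely in 4 dense places, chosen after the values were seen as at least 3 such pairs within 50 kb and called places 2 to 5. Other chromosomes held 0 to 5 such places, with 5 on chromosome 4. Places 2, 4 and 5 are described together because their folds were alike, with all 16 TDCIPP regions above 0 and all 18 DAC regions below 0, while place 3 differed. This grouping was made on the folds, so the even split is no evidence in itself. In all 15 pairs the level was lower in the TDCIPP series between the DMSO groups, by which the places were chosen, and also between the treated groups.

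Place 2 spanned 61.9 kb from 39902846 to 39964700. Its 6 TDCIPP regions had folds from 0.19 to 0.54 with a median of 0.40, 1 of them called, and its 7 DAC regions from -0.36 to -0.24 with a median of -0.27. The gap between the DMSO levels, TDCIPP series minus DAC series, ran from -1.31 to -0.81. It held the chromosome's highest DAC region, at 39939409 to 39942812, where reads were 6747 in DMSO and 5595 in DAC, a fold of -0.27. Its TDCIPP counterpart at 39939532 to 39942786, the second highest of the chromosome in that table, had 3848 reads in DMSO and 5078 in TDCIPP. That fold of 0.40 was not called, its adjusted p being 0.0782 by the authors' deposited table.

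Place 4 spanned 37.9 kb from 46481410 to 46519262. Its 6 TDCIPP regions had folds from 0.26 to 0.48 with a median of 0.43, 2 of them called, and its 7 DAC regions from -0.42 to -0.24 with a median of -0.36. The DMSO gap ran from -2.36 to -1.12. Place 5 spanned 16 kb from 47051648 to 47067671, with 4 TDCIPP regions at 0.26 to 0.48, 1 of them called, and 4 DAC regions at -0.41 to -0.29. Its DMSO gap ran from -2.97 to -1.33. Place 5 held the next 2 DAC regions by level of the chromosome: at 47059085 reads were 2778 in DMSO and 2210 in DAC, and at 47064539 they were 2629 and 2150.

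Between places 4 and 5 the pattern was not the same in both tables. The 6 TDCIPP regions there had 3 folds above 0 and 3 below, with a median of 0.00. Of the 22 DAC regions, 16 lay below 0, and the median fold was -0.34. Their median level was 3.98, so DAC values below 0 here were not limited to regions of high level.

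Place 3, 34.9 kb from 42923248 to 42958137, met the same criterion but differed. Its 6 TDCIPP regions lay above 0, from 0.25 to 0.43, and 0 were called. Its 6 DAC regions also lay above 0, from 0.05 to 0.49. The DMSO gap ran from -0.44 to 0.56, and per kb of region none of its 6 pairs had the lower level in the TDCIPP series, against 6 of 6, 6 of 6 and 3 of 3 in places 2, 4 and 5.

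Place 1 departed the other way. Its DMSO level was higher in the TDCIPP series by 4.13 to 5.69 over 10 pairs, with a median of 4.68. The chromosome's median was 2.24, over pairs of all levels and so not at like level. The DMSO level is part of the falls by which place 1 was picked, so that choice can raise this gap. Between the treated groups the gap was 3.5 to 5.28, with a median of 3.74. The TDCIPP folds of place 1 lay below 0, and its 12 DAC folds all lay above 0, from 0.10 to 0.53 with a median of 0.38. The median DAC level of place 1 was 6.68. On other chromosomes the DAC regions of the highest level class, from 5.96 up, had a median fold of 0.35, with 88.9% above 0. The DAC folds of place 1 were thus near those of other regions of high level. The authors' deposited table gives 0.297 as the smallest unadjusted DAC p there.

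**Figure D4:**
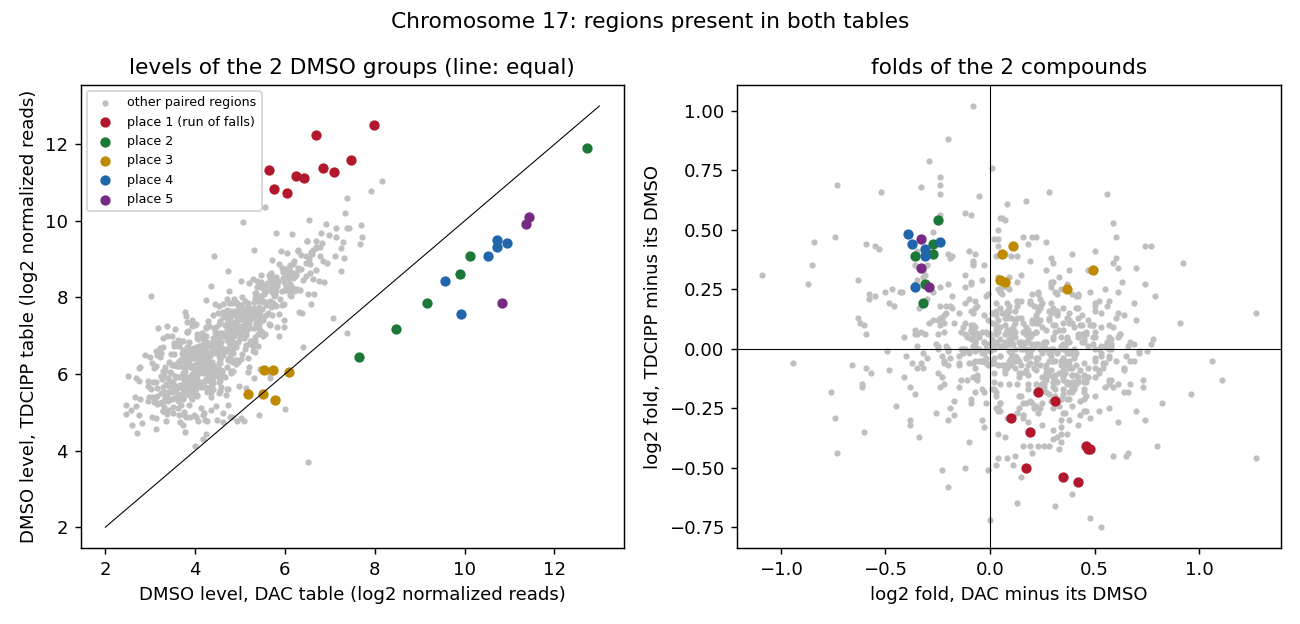
Chromosome 17 regions present in both tables (816 pairs). Left, level of the DMSO group in the TDCIPP table against that in the DAC table, in log2 normalized reads, with the line of equal levels; right, log2 fold after TDCIPP against log2 fold after DAC. Places 2, 4 and 5 lie below the line on the left and in the upper left quadrant on the right; place 1 lies far above the line (gap of 4.13 to 5.69) and in the lower right quadrant.

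Places 1, 2, 4 and 5 differed between the series in their share of the chromosome's reads. Places 2, 4 and 5 held 41.6% of the chromosome's normalized reads in the DMSO group of the DAC series and 34% in DAC. In the TDCIPP series they held 5.4% in DMSO and 7.30% in TDCIPP. These places were chosen on the DMSO levels of the 2 series, so the direction of that difference is no evidence in itself. Place 1 held 17.7% in the DMSO group of the TDCIPP series but 1.82% in that of the DAC series. What sets the control groups apart at these places was not tested.

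The regions of highest level, in part the same regions, differed between the series. At a DAC level of 9 or more chromosome 17 had 15 regions, all in places 2, 4 and 5. All lay below 0, from -0.42 to -0.24 with a median of -0.31. Those places were chosen on DMSO levels and grouped on these folds, so the even sign of the 15 is no evidence in itself. The 192 such regions of other chromosomes were split, 95 above 0 and 96 below, with a median of -0.00. At a TDCIPP level of 9 or more the chromosome had 64 regions, 20 above 0 and 41 below, with a median of -0.08. Of these 64 regions 22 lay in the dense places, among them all 14 of place 1, which was picked as a run of falls. The 1619 regions of such a level elsewhere also had a median of -0.08.

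**Figure D5:**
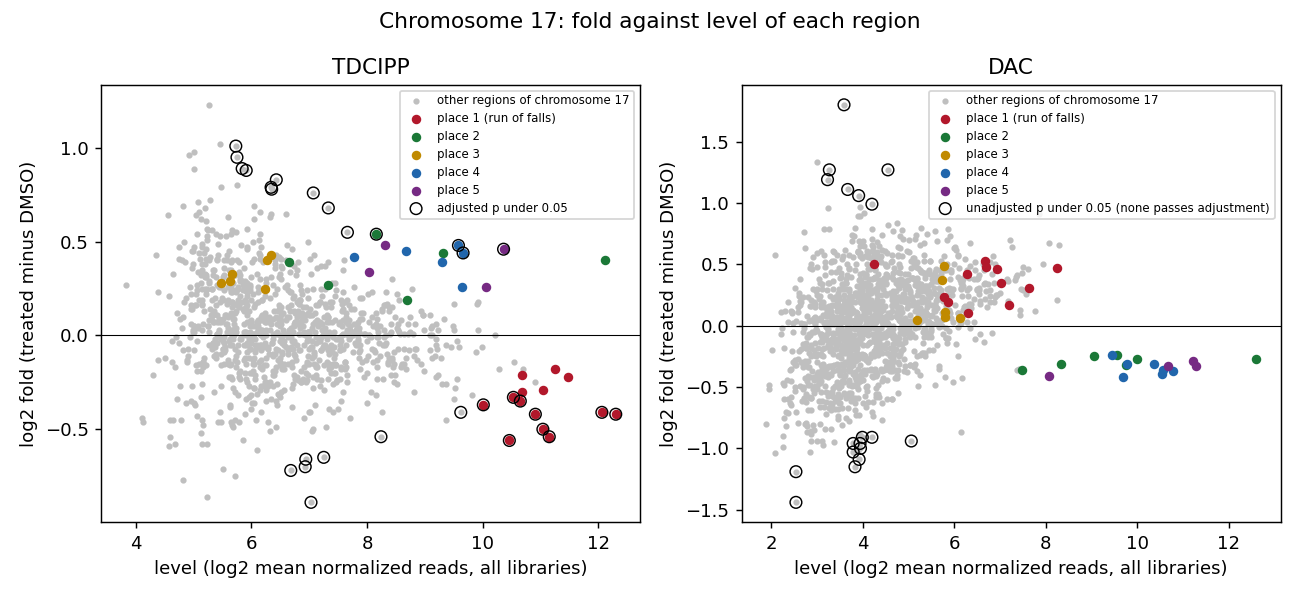
Log2 fold (treated minus DMSO) against level (log2 mean normalized reads over all libraries) of every chromosome 17 region, for TDCIPP (1131 regions) and DAC (1479 regions). Coloured points are the 5 dense places. Open black circles mark regions called after TDCIPP and, in the DAC panel, regions with the authors' unadjusted p under 0.05. None of these DAC regions passed adjustment. All 15 DAC regions at a level of 9 or more belong to places 2, 4 and 5, which were grouped on their folds, and lie below 0.

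Away from the 5 places the chromosome kept 10 of its 14 rises and 7 of its 16 falls. The median folds of the regions left were 0.02 over 1095 TDCIPP regions and 0.05 over 1443 DAC regions, as with the places. At like level they differed from other chromosomes by 0.013 after TDCIPP and by -0.041 after DAC. Across the 785 pairs outside the places the folds had a Pearson correlation of -0.19, and 53.2% of the pairs with nonzero folds had opposite signs.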

How the data were processed

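Per the submitters' processing notes, Bowtie2, Picard, MACS2, deepTools and DiffBind were used with GRCz11. Versions, any Tn5 shift, the handling of duplicates and of multiply mapped reads, and how libraries were scaled were not given in the sources used here. Per the file headers, the authors deposited, for 2 separate sets of consensus regions, log2 mean normalized reads over all libraries and per group, a log2 fold, and p-values before and after adjustment (FDR). The deposited p-values come from the authors' own DiffBind test. Treated embryos labelled DAC appear as 5AzaC in that table's header. There were 0 columns of other samples and 0 of single libraries, so the count test planned for counts could not be run, and depth is known only as group sums of normalized reads, 7.75 M per library for TDCIPP, 7.91 M for its DMSO, 2.07 M for DAC and 1.88 M for the DMSO of that series.

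Folds were computed as treated minus DMSO level and equalled the deposited fold within 0.01. Like level means 10 classes of equal size over the 25 assembled chromosomes. Differences of medians were weighted by the class sizes of the chromosome set against the others. Shares of called regions at like level were weighted by the class sizes of chromosome 17. Windows of 1 Mb took regions by midpoint. Joined calls lay within 50 kb. Members, windows, stretches, places and lists were chosen with earlier results of these data known. Stretches and places 1 to 5 were chosen on the values given, place 1 as a run of at least 6 falls. Named regions were every rise; the falls of largest fold, of smallest p or in a run of at least 6; DAC regions of smallest unadjusted p or largest fold; every called region also in the DAC table; the 3 regions of highest level per table; and the 3 highest and lowest windows. Alternatives were other thresholds, a recomputed adjustment, a fold or level minimum, joined calls, other classes, window sizes and overlaps, and leaving out the dense places. The code was tested on the deposited regions, with folds shuffled and a known shift added on chromosome 17, and on small made-up inputs. Python 3.11.15, pandas 2.3.3, numpy 2.4.6, scipy 1.17.1 and matplotlib 3.10.9 were used. No gene, exon or sequence is given, because no genome or annotation of GRCz11 was used here.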

Additional observations from a re-analysis of the deposited data

Results flagged for a closer look

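Regions on alternate scaffolds of chromosome 17 (other haplotypes of placed sequence) are outside the assembled chromosome. They enter the comparisons above only as part of the whole-table backgrounds. In the authors' deposited table, 17 of their 181 TDCIPP regions, on 29 scaffolds, had an adjusted p under 0.05 and a lower level than in DMSO, and 0 were higher. The background over all 35040 TDCIPP regions was 0.916% lower and 0.362% higher. Of these falls 9 lay on 1 scaffold, with a median fold of -0.43 and a median level of 10.25, 7 on another, at -0.42 and 11.94, and 1 on the last, at -0.88 and 6.55. Median levels of 10.25 and 11.94 are in the highest class of level, from 8.46 up. Falls were also commonest in that class on the other assembled chromosomes, at 144 of 2880 regions. No share at like level is given here for the scaffolds, so whether they held more falls than their levels bring was not tested. Over all 181 regions the median fold was -0.03, and 44.2% lay above 0. In the DAC table the 166 regions on 30 such scaffolds had a median fold of 0.25, with 72.3% above 0 and 0 called.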

How the results depend on the processing

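The counts of regions moved with the threshold. For TDCIPP, an adjusted p under 0.01 left 2 rises and 10 falls, and one under 0.1 gave 23 rises. Of the 14 rises 8 were at or above the median level. A fold of at least 0.5 left 9 falls, joining falls within 50 kb left 8, and leaving out the dense places left 7. For DAC, an unadjusted p under 0.01 left 2 higher and 1 lower regions, and one under 0.1 gave 16 and 21. The adjusted p left 0 in each direction, and the median level left 2 in each. The share of DAC windows above 0 was 33.3% with folds relative to their level class. Pairs with the lower DMSO level in the TDCIPP series numbered 16 where at least 0.5 of the length of both regions had to be shared. The causes were not tested. A Benjamini-Hochberg adjustment recomputed over all regions from the deposited p-values called 14 rises, 12 of the deposited ones and 2 at levels up to 5.46, and 14 falls, all among the deposited ones. Of the other alternatives, counts stayed within 1.5 times their main value (for example from 27 to 18 pairs per kb of region and from 16 to 21 falls at an adjusted p under 0.1). The share of TDCIPP windows above 0 ran from 50.0% to 66.7%. The difference at like level ran from 0.010 to 0.021 for TDCIPP and from -0.050 to -0.039 for DAC. No paired analysis was possible because only group means were deposited. Leaving out a library in turn was not possible either. The DAC table, with a median of 18.3 normalized reads per region, limits what can be seen at low levels.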
